A study of Mus musculus with 13 samples.

Results

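The genes described here are the early growth response genes Egr1, Egr2 and Egr3, their corepressors Nab1 and Nab2, and the orphan nuclear receptor genes Nr4a1, Nr4a2 and Nr4a3. They were chosen by symbol: the rows of the RNA-seq count table whose Ensembl gene ID maps to one of these 8 names. The table holds 56941 gene IDs, each of the 8 names matched 1 ID, and all 8 genes passed the filter on low counts that left 14681 genes for testing. The RNA came from mouse Th17 cells, CD4 helper T cells defined by interleukin-17. Naive CD4 T cells from spleen had been activated for 72 hours under Th17-polarizing conditions. The KO group (genotype label Chaf1bfl/fl;Il17fCre+, 3 libraries) carries floxed alleles of Chaf1b, which encodes a subunit of the histone chaperone CAF-1, and a Cre recombinase driven by Il17f. The WT group (genotype label Chaf1bWT, 3 libraries) has a label that does not say whether Cre is present. The labels give neither age nor sex of the mice. Since Il17f drives Cre, recombination is limited to cells that have turned Il17f on, and such a culture can hold cells that were never recombined.

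The comparison of genotypes asks how loss of Chaf1b affects expression in Th17 cells. The KO libraries held 35708879, 38395131 and 37139371 counts and the WT libraries 40402762, 38099488 and 45232055. Chaf1b itself read 16.3, 14.9 and 13.5 CPM (counts scaled to an equal library size) in the libraries labelled KO, against 13.2, 11.4 and 11.5 CPM in WT (edgeR adjusted p = 0.13). All exons were summed and the labels do not name the deleted ones, so this count cannot check the genotype. WT replicate 1 stood apart from the other WT libraries: chi-square per degree of freedom was 33.1 and 18.8 for its 2 pairs with them, against 7.54 for the pair without it and 4.19 to 4.53 for pairs of KO libraries. The defining Th17 markers were counted in every library, but their summed level was 35.8 to 38.0 CPM in KO, against 96.6 to 214 CPM in WT. CD4 T cell markers overlapped in sum, at 879 to 906 CPM in KO and 884 to 1086 CPM in WT. Of these 5 genes Cd4 alone had groups apart, with 225 ± 9.38 CPM in KO and 290.1 ± 45.4 CPM in WT (SD, n = 3 each). Markers of gamma delta T cells summed to 95.8 to 101 CPM in KO and 50.7 to 62.6 CPM in WT. Those of CD8 T cells overlapped, at 12.4 to 16.6 CPM in KO and 14.1 to 16.0 CPM in WT. B cell markers summed to 14.1 to 16.0 CPM in KO and 16.3 to 22.1 CPM in WT. Most of that sum was Ebf1, at 9.85 ± 1.08 CPM in KO and 15.6 ± 1.94 CPM in WT, whereas Cd79b went the other way, at 4.75 ± 0.305 CPM in KO and 2.84 ± 0.562 CPM in WT (edgeR adjusted p = 0.0391). Myeloid markers summed to 7.03 to 8.94 CPM in KO and 5.80 to 6.46 CPM in WT. Most of that sum was Cd68, at 5.47 ± 1.09 CPM in KO and 4.21 ± 0.518 CPM in WT (edgeR adjusted p = 0.26). Adgre1, Lyz2 and Itgam also had higher means in KO, and Cd14 and Csf1r lower ones, and no tested myeloid gene passed the threshold. Of 4 NK cell markers, Ncr1, Klrb1c and Klra8 had no count in any library, while Klrk1 read 14.9 to 18.6 CPM in KO and 8.24 to 10.5 CPM in WT. The sums of the Th17, gamma delta, B cell, myeloid and NK lists thus moved with genotype beside every result below, and their part in it was not tested. In bulk RNA, fewer cells of a type and less RNA per cell cannot be told apart.

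Egr and Nr4a genes are immediate early genes: antigen receptor signals switch them on within minutes to hours without new protein synthesis. The Egr proteins are zinc finger factors that bind GC-rich sites. Egr1 is induced mainly through the ERK kinases and the serum response factor SRF, and Egr2 and Egr3 also through calcineurin and NFAT; Egr2 and Egr3 are known in T cells for restraining activation and for anergy. Nab1 and Nab2 bind Egr proteins and recruit the NuRD repressor complex, and Nab2 is itself an Egr target, so it can close a feedback loop. The Nr4a receptors act without a known natural ligand, bind the NBRE element as monomers, and take part in T cell tolerance and exhaustion. Nr4a1, also called Nur77, is widely used as a reporter of antigen receptor signalling.

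Promoter windows of Egr2 and the 3 Nr4a genes are printed because these windows hold motifs of such signal-dependent factors and because the genes differ in the results below. Each window is the 250 bases before a start site in RefSeq on GRCm38.p6. They lie at chr10:67537619-67537868 (plus strand, 1 of 5 Egr2 windows), chr15:101266596-101266845 (plus strand, Nr4a1), chr2:57124004-57124253 (minus strand, Nr4a2) and chr4:48045055-48045304 (plus strand, Nr4a3). Capitals mark the CArG box bound by SRF, the cyclic AMP response element core TGACG or its reverse complement CGTCA, and the Egr site GCGNGGGCG on either strand.
Egr2: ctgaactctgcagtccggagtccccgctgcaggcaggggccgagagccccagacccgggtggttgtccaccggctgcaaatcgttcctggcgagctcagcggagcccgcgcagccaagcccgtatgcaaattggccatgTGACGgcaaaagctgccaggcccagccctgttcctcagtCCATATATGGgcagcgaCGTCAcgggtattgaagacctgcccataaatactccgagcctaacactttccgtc
Nr4a1: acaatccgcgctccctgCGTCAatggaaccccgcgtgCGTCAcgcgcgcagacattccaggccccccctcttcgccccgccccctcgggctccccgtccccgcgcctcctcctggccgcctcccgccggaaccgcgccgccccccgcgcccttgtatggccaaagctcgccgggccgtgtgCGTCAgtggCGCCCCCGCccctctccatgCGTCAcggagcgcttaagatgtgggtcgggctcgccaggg
Nr4a2: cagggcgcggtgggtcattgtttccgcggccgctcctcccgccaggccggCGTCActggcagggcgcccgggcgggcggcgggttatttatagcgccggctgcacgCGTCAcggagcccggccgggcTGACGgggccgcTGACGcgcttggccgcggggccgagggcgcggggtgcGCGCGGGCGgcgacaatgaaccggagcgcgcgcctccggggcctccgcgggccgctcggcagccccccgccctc
Nr4a3: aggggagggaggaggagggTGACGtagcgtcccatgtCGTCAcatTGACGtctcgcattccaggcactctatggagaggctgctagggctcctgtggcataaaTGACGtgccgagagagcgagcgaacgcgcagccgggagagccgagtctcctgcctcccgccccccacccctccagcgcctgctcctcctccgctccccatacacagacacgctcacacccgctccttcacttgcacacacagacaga

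Windows of Nr4a1, Nr4a2 and Nr4a3 each held 4 matches to TGACG, counting both strands. At least 1 match stood in 17.8% of all 32851 windows in the table and at least 4 in 0.137%. The cutoff of 4 is the number found in these Nr4a windows themselves, so the second share describes them and is no test. The Nr4a1 matches began 233, 213, 69 and 40 bases before the start, the Nr4a2 matches 200, 144, 123 and 111, and the Nr4a3 matches 231, 213, 205 and 147. The printed Egr2 window held a CArG box beginning 72 bases before the start, a motif found in 1.47% of windows, and TGACG matches at 111 and 55 bases. An Egr site, present in 4.7% of windows, began 60 bases before the Nr4a1 start and 74 bases before the Nr4a2 start, and the Nab1 window held 3. The NBRE (AAAGGTCA, 1.34% of windows) and the AP-1 site (TGANTCA, 6.75%) matched no window of these genes. Further searches were for the NFAT core GGAAA (55.6% of windows), the ETS core CCGGAA (12% of windows) and the MEF2 box (2.92% of windows). The NFAT core matched the printed Egr2 window, beginning 8 bases before the start, and the Nr4a2 window, at 230 bases. The ETS core began 125 bases before the Nr4a1 start, and the MEF2 box 167 bases before the Nr4a2 start. Another Egr2 window, not printed, held 3 ETS cores and 3 NFAT cores. The Nab2 window held none of the 8 motifs. Egr1 and Egr3 have no entry in the table. A match describes letters and shows no binding.

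Of the 8 genes, 4 (Egr1, Egr3, Nab2 and Nr4a3) passed edgeR's quasi-likelihood test at a Benjamini-Hochberg adjusted p under 0.05, which 6.39% of the 14681 tested genes did. All 4 were higher in KO, as were 3.92% of tested genes, and 0 were lower, as were 2.47% of tested genes. Every log2 fold change fitted by edgeR was above 0, so none was lower at an unadjusted p under 0.05. DESeq2 and limma-voom, fitted separately, also called 0 of them lower. The median edgeR log2 fold change was 0.29, against -0.01 over all tested genes. At least 2-fold changes were limited to Egr1 and Egr3. Of all tested genes, 0.926% both passed the threshold and rose at least 2-fold, as these 2 did. In 5 of the 8 genes the groups did not overlap, against 26.8% of tested genes. In all 5 every KO library lay above every WT library, which 14.4% of tested genes showed, and 0 of the 8 lay wholly below, which 12.4% showed. The genes share inducing signals and were chosen with earlier results known, so these counts describe the list and do not test it. Levels are in CPM per gene and not per exon length, so the level of one gene is not set against that of another. The lowest count of any of the genes in a library was 509 and the highest 7108.

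**Figure D1:**
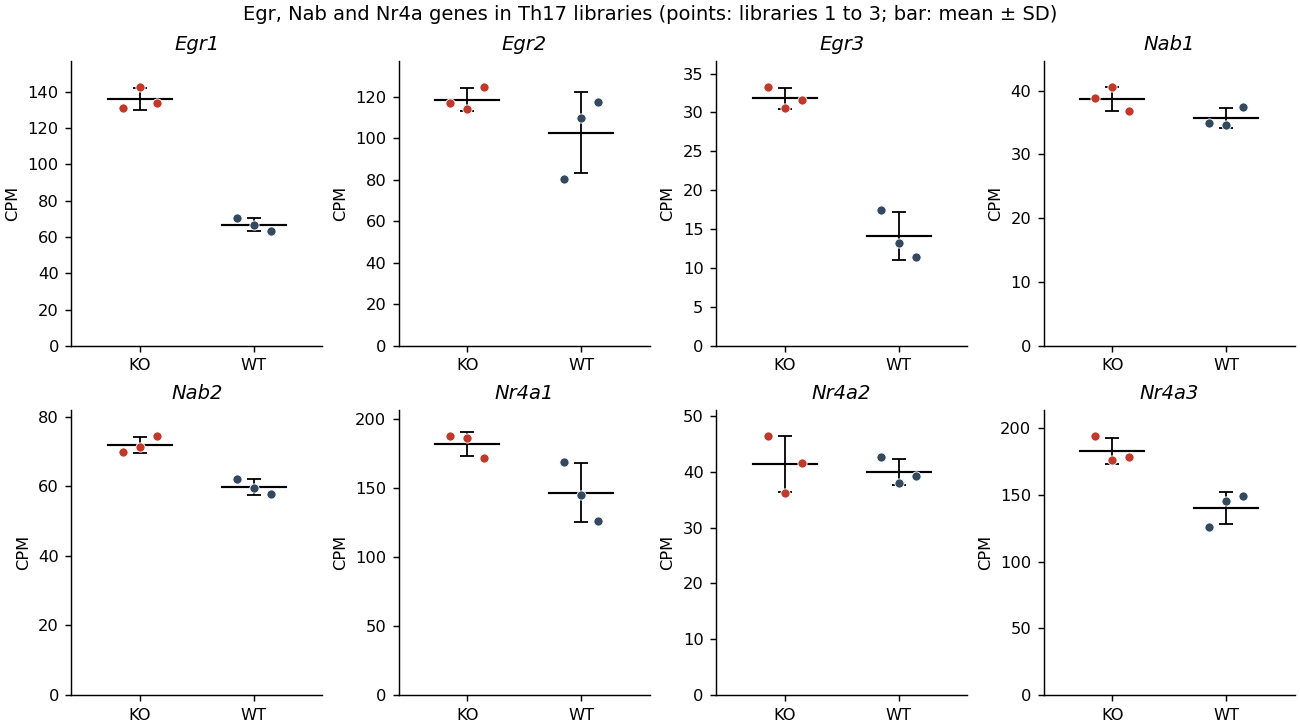
Level of each gene (CPM, y axis from 0, own scale per panel) in the 3 KO libraries at left and the 3 WT libraries at right, with mean and SD as bars. Points of the groups are apart for Egr1, Egr3, Nab2, Nr4a1 and Nr4a3, and overlap for Egr2, Nab1 and Nr4a2.

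Egr1 (ENSMUSG00000038418.8) read 131, 143 and 134 CPM in KO, against 70.3, 66.9 and 63.4 CPM in WT. The groups lay far apart relative to their spread. Expressed as log2 fold change the difference was 1.02 ± 0.06 (± is the SE for fold changes throughout), its 95% interval ran between 0.89 and 1.15, and the edgeR adjusted p was 3.06e-06. By p-value Egr1 ranked 8 among all tested genes.

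Egr3 (ENSMUSG00000033730.5), whose product acts beside Egr2 in T cells, read 33.3, 30.5 and 31.6 CPM in KO, against 17.5, 13.3 and 11.5 CPM in WT. All KO libraries were higher than all WT libraries, and WT replicate 1 was the highest of its group. A log2 fold change of 1.18 ± 0.13 was fitted, a 2.26-fold difference, with a 95% interval of 0.88 to 1.47 and an adjusted p of 0.000554 by edgeR. Without WT replicate 1 it was 1.37.

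Egr2 (ENSMUSG00000037868.16) read 117, 114 and 125 CPM in KO, against 80.6, 110.0 and 118 CPM in WT. The groups overlapped, and the gap in their means came mostly with WT replicate 1, which was the lowest library. The log2 fold change was 0.21 ± 0.12 with an edgeR adjusted p of 0.376, and without WT replicate 1 it was 0.06. Its 95% interval of -0.07 to 0.48 ends below the lower bounds of Egr1 and Egr3. A predicted gene, Gm32255, overlaps Egr2 in RefSeq and read 1.07 CPM in KO and 0.974 CPM in WT.

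**Figure D2:**
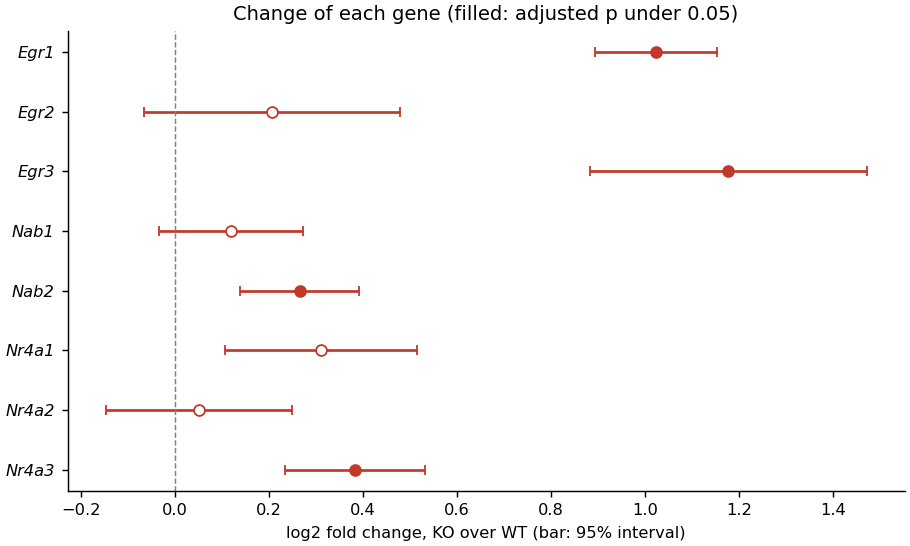
Log2 fold change of KO over WT (x axis) for each gene, with its 95% interval as a bar; filled points had an adjusted p under 0.05. Egr1 at 1.02 and Egr3 at 1.18 stand apart from the other 6 genes, which lie between 0.05 and 0.38.

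Unequal change within the Egr family was read from ratios of counts inside each library, in which depth cancels. The ratio of Egr2 to Egr1 counts was 0.894, 0.799 and 0.931 in KO, against 1.15, 1.64 and 1.86 in WT. Every KO library lay below every WT library. On the log2 scale the ratio was -0.20 ± 0.11 in KO and 0.60 ± 0.36 in WT (SD, n = 3 each), a difference of -0.80. The two-sided exact permutation test gave p = 0.1, the smallest that 3 against 3 libraries allow, and 0.2 after Benjamini-Hochberg adjustment over the 6 ratios compared, so none could pass 0.05. The log2 ratio of Egr3 to Egr1 was -1.98, -2.22 and -2.08 in KO, against -2.01, -2.33 and -2.47 in WT, with overlapping groups (difference 0.17, exact permutation p = 0.3, adjusted 0.36).

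Nab2 (ENSMUSG00000025402.13), the inducible corepressor of Egr proteins, read 69.8, 71.4 and 74.5 CPM in KO, against 62.1, 59.6 and 57.7 CPM in WT. The groups did not overlap, and the gap was small. A 1.2-fold difference was fitted (log2 0.27 ± 0.06, edgeR adjusted p = 0.0202). When KO replicate 1, 2 or 3 was omitted the log2 fold change was 0.28, 0.27 and 0.24, with adjusted p of 0.0838, 0.101 and 0.122. When WT replicate 2 was omitted it was 0.26 (0.101). In RefSeq Nab2 overlaps Stat6, and without strand their shared reads cannot be told apart. Stat6 read 287 ± 7.21 CPM in KO and 297 ± 6.47 CPM in WT (edgeR adjusted p = 0.557).

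Nab1 (ENSMUSG00000002881.15), the other Egr corepressor, read 38.9, 40.6 and 36.8 CPM in KO, against 34.9, 34.6 and 37.5 CPM in WT. KO replicate 3 fell within the WT range, so the groups overlapped. The log2 fold change was 0.12 ± 0.07, with a 95% interval of -0.03 to 0.27 and an edgeR adjusted p of 0.365. The ratio of Nab2 to Nab1 also overlapped between the groups, at 0.85, 0.82 and 1.02 on the log2 scale in KO and 0.83, 0.79 and 0.62 in WT (exact permutation p = 0.2, adjusted 0.3).

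The ratio of Nab2 to the summed counts of the 3 Egr genes was lower in KO, although Nab2 itself was higher. Its direction follows from the fold changes above, log2 0.27 for Nab2 against 1.02 for Egr1 and 1.18 for Egr3. Egr2, also in the sum, had 0.21, below that of Nab2. The log2 ratio was -2.01, -2.01 and -1.96 in KO, against -1.44, -1.67 and -1.74 in WT. KO libraries were nearly alike and all lay below WT. The difference was -0.38 (exact permutation p = 0.1, adjusted 0.2). The sum is not scaled for gene length, so it weights the Egr genes by their counts.

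**Figure D3:**
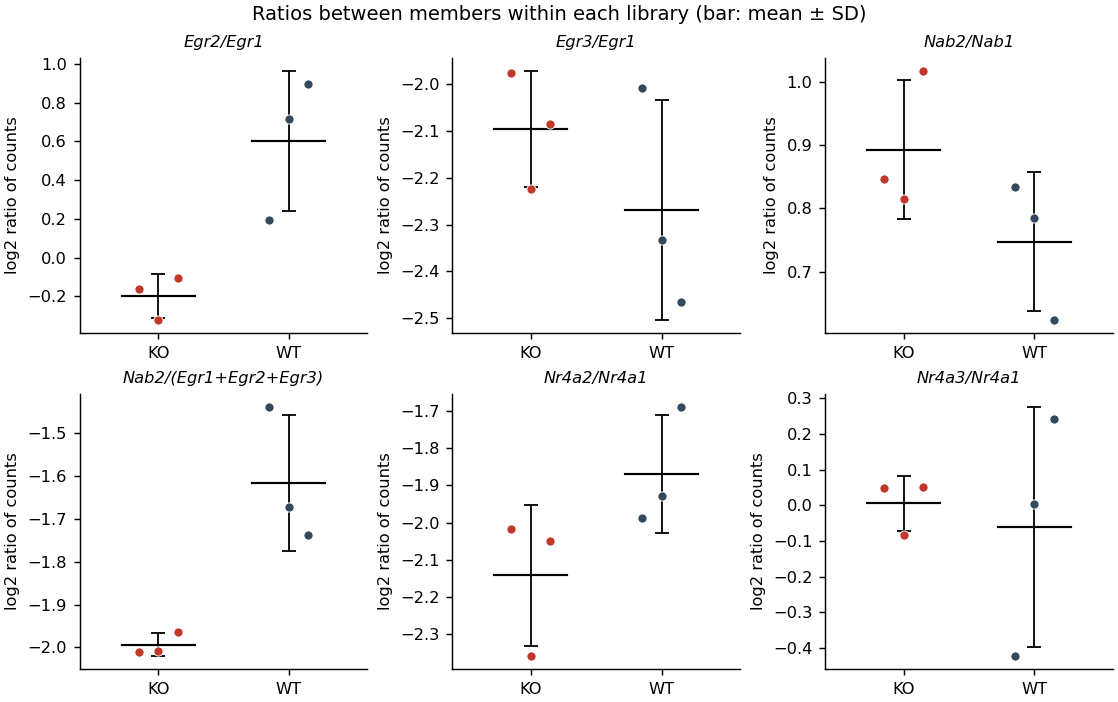
Log2 ratio of counts between genes within each library (y axis, own scale per panel) for the 3 KO libraries at left and the 3 WT libraries at right, with mean and SD as bars. KO lies wholly below WT for Egr2/Egr1, Nab2 over the Egr sum and Nr4a2/Nr4a1, and the other 3 ratios overlap.

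Nr4a3 (ENSMUSG00000028341.10), also called Nor1, was the Nr4a gene that passed the threshold. It read 194, 176 and 178 CPM in KO, against 126, 145 and 149 CPM in WT. The KO libraries were all higher, and WT replicate 1 was the lowest. A 1.3-fold difference was fitted (log2 0.38 ± 0.07, edgeR adjusted p = 0.00709). When KO replicate 1 was omitted the log2 value was 0.33 (adjusted p = 0.0793), and when KO replicate 3 was it was 0.40 (0.0506).

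Nr4a1 (ENSMUSG00000023034.8) read 188, 186 and 172 CPM in KO, against 169, 145 and 126 CPM in WT. The groups did not overlap, but KO replicate 3 and WT replicate 1 were close. The log2 fold change was 0.31 ± 0.09, with a 95% interval of 0.11 to 0.51 and an edgeR adjusted p of 0.078. Whether Nr4a1 passed turned on the method and on WT replicate 1, the highest of its group. Without that library the log2 fold change was 0.43 (adjusted p = 1.05e-06), and DESeq2, which used all 6 libraries, gave 0.31 (adjusted p = 0.00897).

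Nr4a2 (ENSMUSG00000026826.14), also called Nurr1, read 46.4, 36.3 and 41.6 CPM in KO, against 42.7, 38.0 and 39.2 CPM in WT. The KO libraries spread on both sides of the WT range. The log2 fold change was 0.05 ± 0.09, with a 95% interval of -0.15 to 0.25 (edgeR adjusted p = 0.802). Without KO replicate 1 it was -0.04. In RefSeq the locus LOC105244150 overlaps Nr4a2, and its counts were not examined.

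Within the Nr4a family, the log2 ratio of Nr4a2 to Nr4a1 was -2.02, -2.36 and -2.05 in KO, against -1.99, -1.93 and -1.69 in WT. All KO values were lower, though the nearest ones differed little. The difference was -0.27 (exact permutation p = 0.1, adjusted 0.2). The ratio of Nr4a3 to Nr4a1 was 0.05, -0.08 and 0.05 in KO, against -0.42, 0.00 and 0.24 in WT, where WT replicate 1 was the lowest library (exact permutation p = 0.8, adjusted 0.8).

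**Figure D4:**
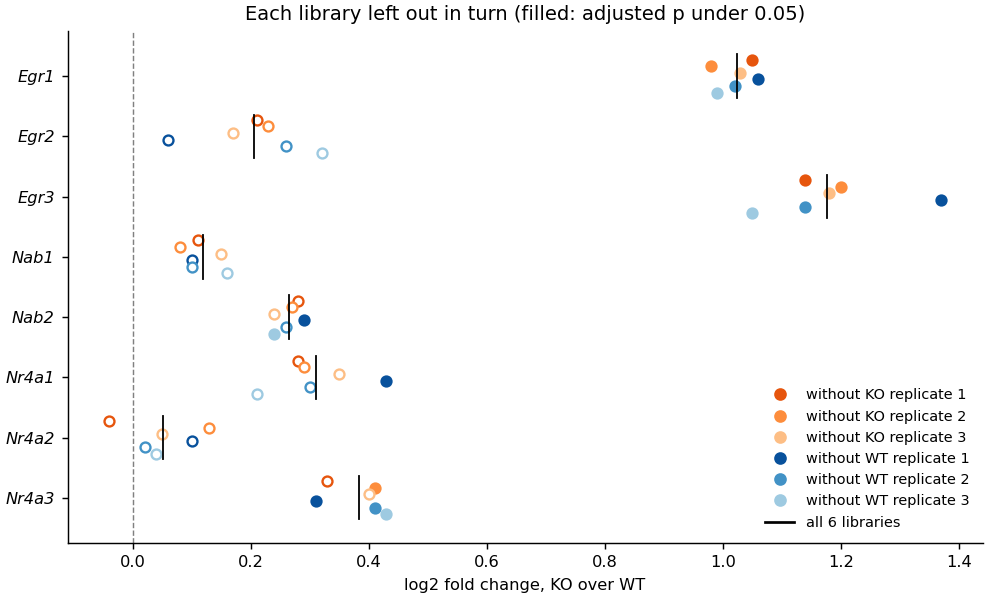
Log2 fold change of KO over WT (x axis) of each gene after leaving out each of the 6 libraries in turn; filled points had an adjusted p under 0.05 and the vertical bar marks the value from all 6 libraries. Egr1 (0.98 to 1.06) and Egr3 (1.05 to 1.37) were filled in all 6 fits, and Nr4a1 in 1.

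How firmly the 8 genes were called differed when each library was left out in turn. Egr1 and Egr3 passed in 6 of 6 such fits, Nr4a3 in 4, Nab2 in 2 and Nr4a1 in 1, while Egr2, Nab1 and Nr4a2 passed in none. Calls over the whole table moved in the same fits. The share of tested genes higher in KO was 10.6% without WT replicate 1, 3.84% without WT replicate 3, 1.77% without WT replicate 2 and 1.48% to 1.6% without a KO library, against 3.92% with all libraries. For genes at 20 CPM or more the 95% interval of a log2 fold change reached a median of 0.15 to either side, so changes of the size fitted for Nab1 and Nr4a2 were not detectable at this depth and number of libraries.

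The other immediate early genes were called in both directions. Of 30 tested, 4 were higher in KO (Fosb, Fos, Dusp2 and Jund), 4 lower (Irf4, Myc, Nfkbia and Dusp4) and 22 did not pass, with a median log2 fold change of 0.04. Over all tested genes 3.92% were higher and 2.47% lower, with a median of -0.01. Fosb, an AP-1 subunit gene, read 16.0, 15.7 and 17.1 CPM in KO, against 8.31, 9.17 and 7.82 CPM in WT. This separation gave a log2 fold change of 0.95 ± 0.10 (edgeR adjusted p = 0.000377). Fos, its relative and another SRF target, had 0.88 ± 0.22 (adjusted p = 0.0455), and of the 6 fits that omit a library it passed only in the one without WT replicate 1 (adjusted p up to 0.16 in the rest). Dusp2, a nuclear phosphatase that acts on ERK, read 324 ± 5.29 CPM in KO and 246 ± 14.6 CPM in WT (0.40 ± 0.05, edgeR adjusted p = 0.00113). Irf4, an antigen receptor target that Th17 cells require, read 1084 ± 31.2 CPM in KO and 1343 ± 46.3 CPM in WT (-0.31 ± 0.04, adjusted p = 0.00142). Jund had 0.25 (0.0425), Myc -0.27 (0.0466), Nfkbia -0.25 (0.0119) and Dusp4 -0.19 (0.0316) as log2 fold change and edgeR adjusted p.

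Genes of the signals upstream of the Egr and Nr4a promoters were called at a share near or below the 6.39% of all tested genes. On the ERK and SRF route 1 of 20 tested genes was higher, the ERK kinase gene Map2k1 (0.21 ± 0.05, edgeR adjusted p = 0.0311), and 0 were lower, with 4 lower at an unadjusted p under 0.05, 1 by DESeq2 and 0 by limma-voom. Srf itself had a log2 fold change of -0.06 ± 0.06 (adjusted p = 0.586). On the calcium route through calcineurin, NFAT and MEF2, 0 of 17 tested genes passed in either direction with edgeR, DESeq2 or limma-voom; at an unadjusted p under 0.05, 0 were higher and 2 lower. These are transcript levels, and the activity of the kinases and factors was not measured.

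Among 10 tested relatives and partners, 1 gene was higher and 1 lower, beside 3.92% higher and 2.47% lower over all tested genes. Egr4, the remaining Egr gene, stood near the detection limit with 34, 57 and 51 counts in KO, against 20, 14 and 17 in WT. The groups did not overlap, and the log2 fold change was 1.64 ± 0.35 (edgeR adjusted p = 0.0191). Omitting KO replicate 2, KO replicate 3 or WT replicate 2 put the adjusted p at 0.105, 0.0896 and 0.0797. Rxra, a dimer partner of Nr4a1 and Nr4a2, read 172 ± 2.57 CPM in KO and 204 ± 13.4 CPM in WT (-0.24 ± 0.06, adjusted p = 0.0246). Wt1 and Rxrg did not pass the filter.

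Of 25 tested genes linked to Egr2 and Egr3 in T cells, 6 were higher in KO, 3 lower and 16 did not pass, with a median log2 fold change of 0.11 (all tested genes: 3.92% higher, 2.47% lower, median -0.01). The direction of each reported link was not recorded for this list or for the list linked to Nr4a. Their counts and medians therefore measure no response to Egr or Nr4a factors. The genes that rose were Ifng, Crtam, Tbx21, Tnf, Sema7a and Lag3, which code for cytokines, surface proteins and the Th1 factor T-bet. Tnf read 377, 347 and 352 CPM in KO, against 208, 242 and 240.0 CPM in WT, well apart (0.64 ± 0.06, edgeR adjusted p = 0.00016). Crtam, a surface protein of cytotoxic lymphocytes, had 1.23 ± 0.20 (adjusted p = 0.0226), and Sema7a 0.57 ± 0.06 (adjusted p = 0.00042). Crtam missed the threshold when KO replicate 1 (adjusted p = 0.0532) or KO replicate 2 (0.0572) was omitted, and with no filter on low counts neither Crtam (0.0994) nor Ifng (0.0618) passed. Lag3, an inhibitory receptor, read 113 ± 4.55 CPM in KO and 86.9 ± 4.07 CPM in WT (0.38 ± 0.06, adjusted p = 0.00263). Cblb, Itch, Rnf128, Dgka and Dgkz, which are among the anergy genes of the list, did not pass. Their edgeR adjusted p was 0.509, 0.406, 0.662, 0.561 and 0.699 in that order. Among those lower in KO were Cdkn1b (log2 fold change -0.30, edgeR adjusted p = 0.0409) and Batf (-0.30, 0.0116).

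Of 16 tested genes linked to Nr4a factors, 3 were higher, 3 lower and 10 did not pass, with a median log2 fold change of 0.02, where 3.92% of all tested genes were higher and 2.47% lower. Havcr2, which codes for the inhibitory receptor TIM-3, read 53.7 ± 4.38 CPM in KO and 28.6 ± 4.86 CPM in WT (0.91 ± 0.12, edgeR adjusted p = 0.00145). Ikzf2 (0.61, adjusted p = 0.0218) and Tigit (0.31, 0.014) were also higher. Foxp3, the factor of regulatory T cells, was lower (-0.90 ± 0.16, adjusted p = 0.00841), as were Nt5e (-0.71, 0.0316) and Bcl2l11, which codes for the pro-apoptotic protein BIM (-0.63 ± 0.10, 0.00361). Pdcd1, the gene of PD-1, overlapped between the groups (0.17 ± 0.08, adjusted p = 0.24). Across these lists 10 of the 26 called genes kept their call whichever library was left out: Fosb, Dusp2, Irf4, Lag3, Sema7a, Tnf, Tbx21, Ifng, Havcr2 and Bcl2l11. Each of the others missed the threshold in at least 1 of those 6 fits, with adjusted p reaching 0.21 for Myc.

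**Figure D5:**
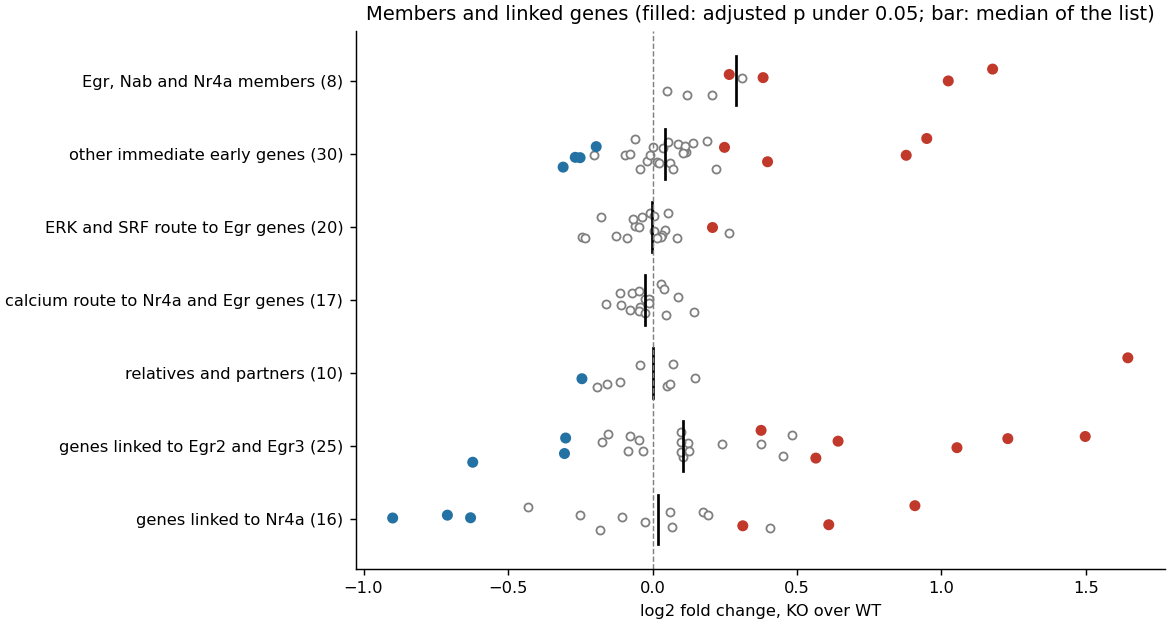
Log2 fold change of KO over WT (x axis) of each tested gene by list, with the number tested in brackets; filled points had an adjusted p under 0.05 (red higher, blue lower) and the bar is the list's median. The 8 Egr, Nab and Nr4a genes all lie above 0 with a median of 0.29, and the medians of the other lists lie between -0.03 and 0.11.

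Over the 6 libraries, the genes whose log2 CPM most resembled the mean standardised profile of Egr1, Egr2 and Egr3, among 6963 genes with at least 20 CPM, were Ero1lb (Pearson r = 0.9982), Cpsf6 (0.9962), Mcm4 (0.9941), Themis (0.9936) and Hmox1 (0.9935). For the Nr4a profile they were Atp6v0d1 (0.9958), Fads1 (0.9898), Ptpn7 (0.9872), Sin3b (0.9857) and P4hb (0.9852). The 6 points share the genotype split and the position of WT replicate 1, so these values describe the libraries only.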

How the data were processed

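RNA-seq of 6 mouse Th17 libraries was analysed (KO and WT, 3 each); the other 7 of 13 samples, which profile chromatin, were not analysed here. The authors deposited raw counts. Per the file headers, they used featureCounts (version 2.0.1) with GENCODE vM33 and summed exons by gene; 5 libraries' commands set no strand and counted no multi-mapping reads, and KO replicate 1's command lacks option names. The headers' alignment files carry the name HISAT; no version is stated, and the build is not given in the sources used here. One deposited column, WT replicate 2, is entered as "other" in the record of units but holds raw counts like the rest. Even values made up 65.6% to 67.7% of counts of 1 to 20 but 48.8% to 50.9% of those from 1000 upward, so depth may rest on fewer fragments than counts. The labels call the libraries biological replicates without naming animals, so p-values measure the spread between libraries.

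Symbols were found for most gene IDs once the version suffix was dropped (51948 of 56941, 91.2%). The whole table was fitted with edgeR 4.0.16 in R 4.3.3 (default filter, TMM factors, robust quasi-likelihood F-test), with Benjamini-Hochberg adjustment over 14681 genes at 0.05. CPM values use TMM library sizes. Ratios within libraries were compared by two-sided exact permutation. They used raw counts, since no exon lengths were in the files; a single gene's length cancels from a difference between groups. The fit was tested on simulated data. Alternatives were RLE and upper-quartile factors, no filter, a stricter filter (1 CPM in 3 libraries), DESeq2 1.42.0, limma 3.58.1 voom with and without quality weights, a replicate block, and leaving out each library. The 8 genes and all gene lists were chosen with earlier results of these data known. Named were the 8 genes, up to 4 called genes per direction of each list, list genes whose absence from the calls a sentence needs, Chaf1b and the markers; other names were chosen after their values were seen. One gene that this rule names is not reported here. Likeness used genes of at least 20 CPM. Motifs were searched on both strands in the 250 bases before each RefSeq start (GRCm38.p6), and a window was in the table for 6 of the 8 genes.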

Additional observations from a re-analysis of the deposited data

How the results depend on the processing

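Egr1 (1.02 to 1.03) and Egr3 (1.17 to 1.27) passed under all 8 alternative settings, as did Nr4a3 (0.34 to 0.38). Nab2 passed in 7 and was lost with the replicate block (log2 fold change 0.27, adjusted p = 0.0522). Nr4a1 came past the threshold without a filter (0.31), with DESeq2 (0.31), with quality weights (0.35) and with the block (0.32). Without a filter the edgeR adjusted p fell to 2.27e-55 for Egr1 and 8.28e-06 for Nr4a1, at unchanged fold changes. For Nab1 (0.538) and Nr4a2 (0.81) it rose. Passing in that setting is therefore no separate support for a call. Over the fits that leave out 1 library, log2 fold changes ran from 0.24 to 0.29 for Nab2, 0.21 to 0.43 for Nr4a1, 0.31 to 0.43 for Nr4a3 and -0.04 to 0.13 for Nr4a2, whose sign turned without KO replicate 1 (-0.04). The count of the 8 genes higher in KO then ran from 2 (without KO replicate 1 or KO replicate 3) to 5 (without WT replicate 1). The Nr4a3/Nr4a1 difference turned to -0.12 without WT replicate 1 and ran from -0.12 to 0.22. With 1 count added to each gene the ratio differences stayed the same to 2 decimals, and over same-numbered pairs a sign-flip permutation cannot go below 0.25. Ratios scaled for length were not run.

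Counts of called list genes were small and moved with the setting. For other immediate early genes higher in KO (4), quality weights gave 9 and leaving out a library 2 to 10; for those lower (4), leaving out a library gave 1 to 5. On the ERK and SRF route, genes higher (1) numbered 2 without a filter, with DESeq2 and with quality weights, 0 with the block, and 0 to 2 with a library left out. Genes lower there (0) numbered 1 with RLE factors, the stricter filter or DESeq2, 2 without a filter, 4 with quality weights and 0 to 4 with a library left out. On the calcium route, genes higher (0) numbered 0 to 1 with a library left out, and genes lower (0) numbered 1 without a filter, 2 with quality weights and 0 to 2 with a library left out. Relatives and partners higher (1) numbered 0 with the stricter filter and with the block, 2 with quality weights and 0 to 2 with a library left out; those lower (1) numbered 2 with RLE factors, without a filter, with the stricter filter and with DESeq2, 4 with quality weights and 0 to 3 with a library left out. With a library left out, genes linked to Egr2 and Egr3 numbered 5 to 11 higher and 0 to 3 lower, and genes linked to Nr4a 1 to 4 higher and 1 to 4 lower. Over all tested genes, those higher (576) numbered 1527 with quality weights and 225 to 1589 with a library left out. Those lower (362) numbered 746 without a filter, 1335 with quality weights, 231 with the block and 70 to 1372 with a library left out. Over the alternatives for the 26 called list genes, 291 values stayed past the threshold and 72 did not; Egr4 did not pass the stricter filter and has no value there. Over 9688 genes the correlation of same-numbered deviations was -0.017, -0.083 and 0.13. Differently numbered libraries of the 2 groups gave -0.144 to 0.161. Same-numbered libraries thus did not stand out, but these values cannot exclude a pairing. The causes of these shifts were not tested.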

Other observations

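Among the WT libraries, replicate 1 was the highest for Egr1 (70.3 CPM), Egr3 (17.5 CPM), Nab2 (62.1 CPM), Nr4a1 (169 CPM) and Nr4a2 (42.7 CPM). It was the lowest for Egr2 (80.6 CPM) and Nr4a3 (126 CPM). Il2, listed with the genes linked to Egr2 and Egr3, read 2172 ± 94.6 CPM in KO and 1589 ± 290.0 CPM in WT (SD, n = 3 each), without overlap and with an edgeR adjusted p of 0.0913.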
